A study of Mus musculus with 20 samples.

Results

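Oxidative phosphorylation genes were followed by RNA-seq in primary mouse cardiac fibroblasts, the matrix-forming cells of the heart, in culture. The set held the protein-coding genes whose symbols begin with Nduf, Uqcr, Cox4 to Cox8 or Atp5, the succinate dehydrogenase genes Sdha, Sdhb, Sdhc and Sdhd, and the protein genes of mitochondrial DNA, with symbols ending in -ps left out. The rule reads gene symbols only, but it was chosen with earlier results of these data known. It gave 107 members among the 55414 gene identifiers of the count table, 94 encoded in the nucleus and 13 in mitochondrial DNA. Of the nuclear members, 36 were subunits of complex I, 8 were Ndufaf assembly factors of complex I, 4 belonged to complex II, 8 to complex III, 20 to complex IV and 18 to complex V. Of the mitochondrial genes, 7 encode subunits of complex I, 1 of complex III, 3 of complex IV and 2 of complex V. Ndufa4 and Ndufa4l2 were placed with complex IV. The symbols came from an older annotation, so Atpif1 and Usmg5, present names Atp5if1 and Atp5md, were not taken in, and neither was Cyc1, the cytochrome c1 of complex III.

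The 20 libraries formed 5 groups of 4. Hyal2 cultures received an adenovirus that expresses hyaluronidase 2, an enzyme that cleaves hyaluronan. Cre_TGFB and GFP_TGFB cultures received an adenovirus with Cre recombinase or with green fluorescent protein and then TGFB, transforming growth factor beta. Cre and GFP cultures received the same viruses without TGFB, and GFP was the control. Every culture, GFP included, came from passage 2 fibroblasts of Hyal2fl/fl mice, in which Cre removes exon 2 of Hyal2, although the genotype label reads Wild Type C57BL/6J. The cells were serum starved for 24 h, exposed to virus for 5 h and stimulated for 48 h with growth factor at 20 ng/mL. The protocol names bFGF beside TGFB in a way that does not say whether the cultures without TGFB received bFGF, so an effect of TGFB and one of absent bFGF cannot be told apart. Replicates 1 and 2 were female and 3 and 4 male, and library names show the same 4 cell isolates in every group, so that a number marks one isolate. The sources used here name neither the promoters of the viral genes nor the age of the mice.

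Libraries held 38621523 to 104779845 counts, and levels are given as CPM, counts scaled to library size with edgeR's TMM factors, with replicates listed 1 to 4. Hyal2 checked the labels: it averaged 934 ± 466 CPM in Hyal2 cultures, 7.42 ± 1.56 in Cre_TGFB, 36.8 ± 3.90 in GFP_TGFB, 10.4 ± 2.90 in Cre and 41.2 ± 3.46 in GFP (SD, n = 4 each). The 9 fibroblast markers summed to 43129 to 69289.8 CPM in Hyal2, 38439.5 to 44353 in Cre_TGFB, 37042 to 46054 in GFP_TGFB, 42399 to 65140.1 in Cre and 42944 to 64888 in GFP cultures. In both TGFB comparisons 7 of these 9 markers fell, among them Pdgfra and Tcf21, and Col1a1 rose, in the edgeR test described below. Of all genes, 28.6% were lower and 26.6% higher in GFP_TGFB, and 29% lower and 27.5% higher in Cre_TGFB. The 11 leukocyte markers summed to 105 to 266 CPM in Cre_TGFB, 111 to 275 in GFP_TGFB, 159 to 416.8 in Cre and 187 to 433 in GFP. The 8 endothelial markers summed to 16.2 to 24.2 CPM in Cre_TGFB, 16.7 to 21.4 in GFP_TGFB, 38.005 to 43.04 in Cre and 37.4 to 42.1 in GFP. Mesothelial and adipocyte markers summed to at most 5.58 CPM in any library. Their part in the results below was not tested, and RNA from whole cultures cannot tell fewer cells of a type from less RNA per cell.

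Oxidative phosphorylation is the last stage of respiration in the inner mitochondrial membrane. Complexes I and II take electrons from NADH and succinate, complex III passes them to cytochrome c, and complex IV hands them to oxygen. Complexes I, III and IV pump protons, and complex V, the ATP synthase, uses the returning protons to make ATP. Mitochondrial DNA encodes core subunits of every complex except complex II, so the finished enzymes need transcripts of both genomes. TGFB turns cardiac fibroblasts into contractile, matrix-secreting myofibroblasts. Several complex IV subunits exist as paired isoforms, one found in most cells and one that is enriched in muscle or testis or induced by low oxygen.

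Of the 13 mitochondrial mRNAs, 6 had almost no counts. mt-Co2, mt-Atp8, mt-Atp6, mt-Co3, mt-Nd3 and mt-Nd4l reached at most 2 counts in any library, while mt-Co1 averaged 150118 counts per library, mt-Cytb 117215 and the least counted of the other mRNAs, mt-Nd6, 1004. No other protein gene lies between these 6 in the mitochondrial genome. In the GRCm38 annotation, nuclear copies of this stretch are listed on chromosome 1 as unprocessed pseudogenes, and their sequence is shown because it decides what a read from these genes can be matched to. The first 60 bases of mt-Co2, a core subunit of complex IV (chrM:7013-7072, plus strand), and of its copy Gm28661 (chr1:24615506-24615565, minus strand) have no difference:
mt-Co2: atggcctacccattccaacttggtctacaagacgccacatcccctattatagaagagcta
Gm28661: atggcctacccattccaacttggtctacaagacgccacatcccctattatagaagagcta
Over the whole gene, 681 of the 684 bases of mt-Co2 aligned to Gm28661 with 0 mismatches. All 50-base windows of mt-Co2 also occur in another annotated gene, and so do 99.9% of those of mt-Co3, 99.5% of mt-Atp6, 98.8% of mt-Nd4l and 98.0% of mt-Nd3.

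mt-Co1, the catalytic subunit of complex IV, aligns to the copy Gm29216 from base 1063 to its end, with 482 identical bases. Gm29216 (chr1:24616129-24616188, minus strand) differs from mt-Co1 (chrM:6390-6449, plus strand) at one base of the stretch below, A1066T counted from the first base of mt-Co1, shown in capitals:
mt-Co1: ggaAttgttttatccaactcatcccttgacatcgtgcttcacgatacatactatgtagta
Gm29216: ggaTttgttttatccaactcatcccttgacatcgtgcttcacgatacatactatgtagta
Of its windows 51.1% occur elsewhere, against 62.2% for mt-Nd4, 8.19% for mt-Nd2, 7.61% for mt-Nd5 and 0% for mt-Nd1, mt-Nd6 and mt-Cytb. mt-Atp8 had 0 counts in every library and 0% of its windows in another annotated gene. Only annotated transcripts were searched, so a copy of mt-Atp8 outside them would not have been found. The copies compared here held 0 to 4 counts in a library. How the counting treated reads that match more than one place is not stated in the sources used here, and the part of shared sequence in the missing counts was not tested. The 6 genes are named here without levels, and levels of mt-Co1 and mt-Nd4 may lack part of their reads.

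**Figure D1:**
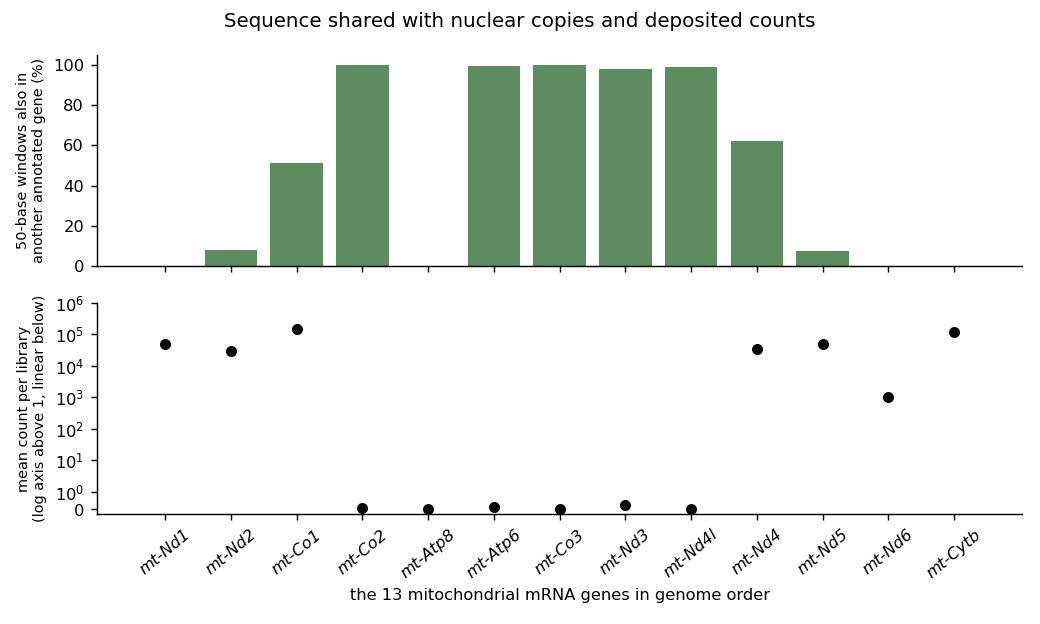
The upper panel shows, for the 13 mitochondrial mRNA genes in genome order, the percentage of 50-base windows that also occur in another annotated gene of GRCm38; the lower panel shows the mean count per library over the 20 libraries. The 6 genes from mt-Co2 to mt-Nd4l lie at or near 0 counts, and 5 of them share 98.0% or more of their windows.

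The tests therefore covered 7 mitochondrial mRNAs and 90 nuclear members, among 15624 genes with enough counts. The nuclear members not tested were Cox7b2, Cox8b, Cox8c and a second identifier of Atp5o, none above 3 counts in a library. Per kilobase of exon, in RPKM, 6 mitochondrial mRNAs led the set in GFP cultures: mt-Co1 averaged 1830.2, mt-Cytb 1681, mt-Nd1 825, mt-Nd5 514, mt-Nd2 478 and mt-Nd4 392. mt-Nd6, at 38.3 RPKM, lay among the nuclear members. The highest nuclear members on that scale were Ndufa4l2 at 238, Cox8a at 215 and Cox6a1 at 208 RPKM, and the complex I assembly factors were the lowest class, with a median of 4.38 RPKM against 27.2 for complex I subunits and 42.95 for complex V. In GFP_TGFB cultures the first 2 changed places, with mt-Cytb at 2440 RPKM and mt-Co1 at 2102.

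TGFB cultures had higher counts of many nuclear members. In GFP_TGFB against GFP, 51 of 90 rose and 5 fell at a Benjamini-Hochberg adjusted p under 0.05 in edgeR's quasi-likelihood test, where 55.3% of all genes were called, 26.6% higher and 28.6% lower. The median log2 fold change was 0.24 over the nuclear members and -0.024 over all genes tested. In Cre_TGFB against Cre, 37 rose and 8 fell, where 56.5% of all genes were called, 27.5% higher and 29% lower; the medians were 0.17 and -0.0042. Of the members that rose, 35 did so in both comparisons, which is 68.6% of the 51 and 94.6% of the 37. All 5 that fell in GFP_TGFB also fell in Cre_TGFB. The matching overlap over all genes is not given here, and both comparisons used the same cell isolates. The overlap is thus not shown to be particular to these members. The changes were small, and the central quartiles of the 90 lay between 0.13 and 0.35 in GFP_TGFB and between 0.05 and 0.27 in Cre_TGFB.

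With the isolates as a replicate block, 57 rose and 5 fell in GFP_TGFB, where 61.9% of all genes were called, 29.8% higher and 32.1% lower, and 46 rose and 8 fell in Cre_TGFB, where 63.6% were called, 31% higher and 32.6% lower. The split depended on the scaling. With library totals in place of TMM factors, 25 rose and 6 fell in GFP_TGFB, where 55.5% of all genes were called, 20.1% higher and 35.3% lower. In Cre_TGFB 19 rose and 9 fell, where 55.9% were called, 22.3% higher and 33.6% lower, so that the higher members were there near the share of all genes. The median of all genes shifted by -0.10 and -0.07. The nuclear median stayed above that of all genes, at 0.14 against -0.13 in GFP_TGFB and 0.09 against -0.08 in Cre_TGFB. Within the sexes, female isolates alone gave 18 higher and 4 lower in GFP_TGFB (median 0.15), where 17.4% of all genes were higher and 19.3% lower, and 15 and 6 in Cre_TGFB (median 0.12), where 17.1% were higher and 20.7% lower. The higher members were thus near the share of all genes in female isolates. Male isolates gave 53 and 4 in GFP_TGFB (median 0.32), where 25.8% of all genes were higher and 28.4% lower, and 37 and 6 in Cre_TGFB (median 0.19), where 27.1% were higher and 28.5% lower. The difference between the sexes was not tested.

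**Figure D2:**
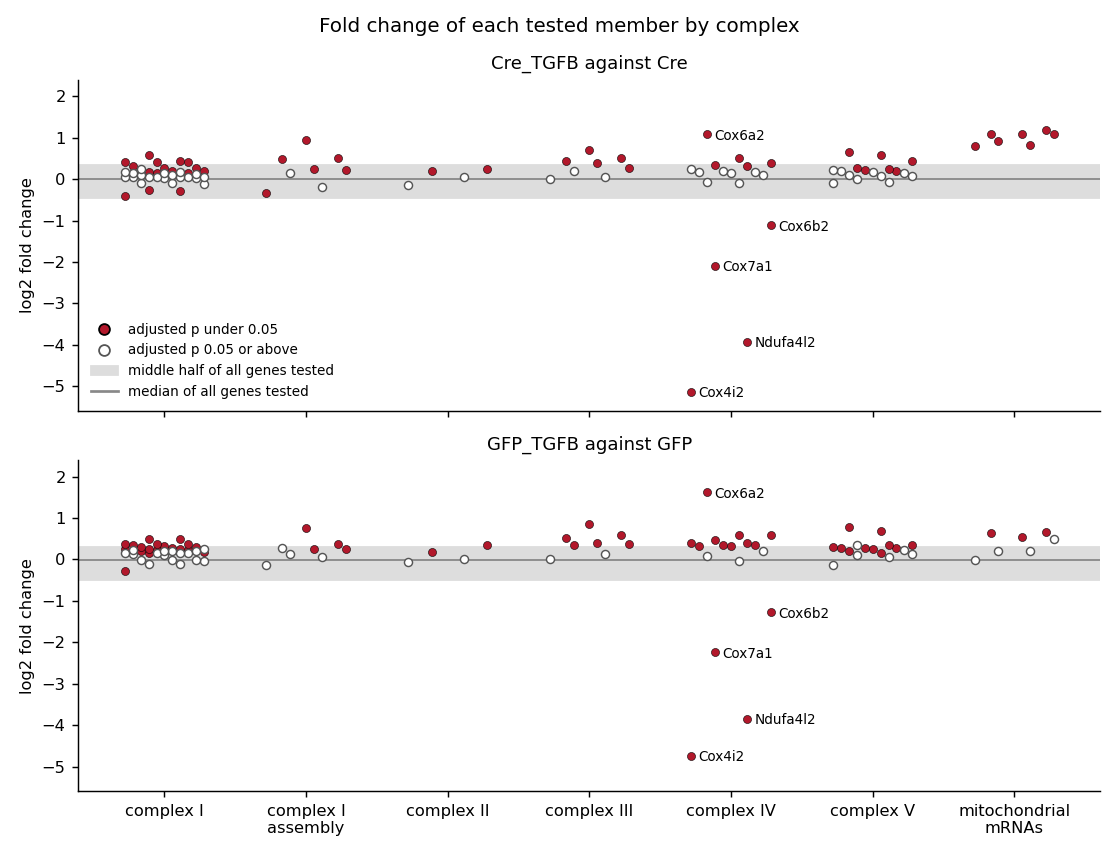
Log2 fold change (vertical axis) of each tested member, by complex, in Cre_TGFB against Cre and in GFP_TGFB against GFP; filled points passed an adjusted p of 0.05, and the grey band and line give the range between the quartiles and the median of all genes tested. Most nuclear members lie slightly above the line, while Cox4i2, Ndufa4l2, Cox7a1 and Cox6b2 lie far below it in both comparisons.

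Complex I, which oxidises NADH, rose in 18 of 36 subunits and fell in 1 in GFP_TGFB cultures, with a median log2 fold change of 0.21, and rose in 13 and fell in 3 in Cre_TGFB cultures, with a median of 0.13. Over all genes 26.6% were higher and 28.6% lower in GFP_TGFB, and 27.5% and 29% in Cre_TGFB. These shares also apply to the other complexes. With library totals, 6 rose in each comparison, under the 20.1% and 22.3% of all genes called higher. There 1 fell in GFP_TGFB and 3 in Cre_TGFB. Ndufb4, an accessory subunit of the membrane arm, had 3.67, 3.99, 3.88 and 3.37 CPM in Cre_TGFB, against 2.61, 2.95, 2.32 and 1.99 in Cre cultures, with no overlap and a log2 fold change of 0.59 (SE 0.15, adjusted p = 0.00189). Its pseudogene Ndufb4c shares 18.3% of its 50-base windows.

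Ndufv3, a small accessory subunit of the NADH-oxidising arm, was the subunit of complex I that fell in both comparisons. It had 84.98, 90.5, 69.97 and 66.5 CPM in Cre_TGFB, against 110.1, 106, 108 and 92.6 in Cre cultures (log2 fold change -0.42, SE 0.10, adjusted p = 0.00160). It had 89.8, 78.5, 73.7 and 75.7 CPM in GFP_TGFB, against 104, 98.7, 95.4 and 90.1 in GFP cultures (log2 fold change -0.29, SE 0.10, adjusted p = 0.0204). Neither pair of groups overlapped, but the second call was lost without GFP replicate 1, GFP_TGFB replicate 3 or GFP_TGFB replicate 4, with adjusted p of 0.0596, 0.0634 and 0.0564. Ndufa13, a membrane-arm subunit also known as GRIM-19, had 125, 136, 106 and 117 CPM in Cre_TGFB, against 152, 154, 148 and 135 in Cre cultures, where Cre_TGFB replicate 2 lay just above Cre replicate 4 (log2 fold change -0.28, adjusted p = 0.00956). Of its windows 28.5% also belong to another gene, most to Tssk6. Ndufa1, another membrane-arm subunit, fell by 0.26 on the log2 scale in Cre_TGFB (adjusted p = 0.0419), a call lost without Cre replicate 1, 2 or 3 or Cre_TGFB replicate 1, 3 or 4, with adjusted p between 0.0604 and 0.118.

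Of the 8 complex I assembly factors, 4 rose in GFP_TGFB and 5 rose and 1 fell in Cre_TGFB cultures. Ndufaf4, which works in the early assembly intermediates of complex I, had 12.1, 11.1, 16.1 and 13.7 CPM in Cre_TGFB, against 6.63, 7.61, 7.36 and 5.89 in Cre cultures, and 12.7, 12.8, 16.6 and 15.1 in GFP_TGFB, against 8.13, 8.67, 7.73 and 9.34 in GFP cultures. All values with TGFB lay above all values without it. The log2 fold changes were 0.95 (SE 0.13, adjusted p = 4.75e-06) and 0.75 (SE 0.13, adjusted p = 6.26e-05), among the largest rises of the nuclear set. Ndufaf7, a methyltransferase needed for complex I assembly, rose by 0.25 in Cre_TGFB (adjusted p = 0.00162) and by 0.25 in GFP_TGFB (adjusted p = 0.00180). Ndufaf6 rose in Cre_TGFB (3.16, 3.04, 3.59 and 3.42 CPM, against 2.25, 2.30, 2.51 and 2.21 in Cre; adjusted p = 0.00270), and its value in GFP_TGFB was 0.29 (adjusted p = 0.0737). Ndufaf3 had 13.5, 12.99, 12.3 and 12.03 CPM in Cre_TGFB, below the 17.6, 15.4, 17.2 and 14.3 in Cre cultures (log2 fold change -0.34, adjusted p = 0.00241).

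Complex II, succinate dehydrogenase, has no mitochondrially encoded subunit. Sdhb, the iron-sulphur subunit, rose by 0.35 in GFP_TGFB (adjusted p = 0.00256) and by 0.24 in Cre_TGFB (adjusted p = 0.0255), and Sdhd, a membrane anchor, by 0.19 in both (adjusted p = 0.0180 and 0.0136), while Sdha and Sdhc passed the test in neither. With library totals the rise of Sdhb in GFP_TGFB still passed (adjusted p = 0.0345) and those of Sdhb in Cre_TGFB (adjusted p = 0.136) and of Sdhd (adjusted p = 0.351 and 0.172) did not, and Sdhc, the other anchor, was lower in Cre_TGFB by -0.21 (adjusted p = 0.0222). The call of Sdhb in Cre_TGFB was also lost without Cre replicate 4 or Cre_TGFB replicate 1, 2 or 4 (adjusted p between 0.0519 and 0.0844), and that of Sdhd in GFP_TGFB without GFP replicate 3 or GFP_TGFB replicate 1 (adjusted p = 0.0601 and 0.0610). Sdha, the flavoprotein that oxidises succinate, had 190.1, 189, 195 and 194 CPM in GFP_TGFB, against 187, 192, 194 and 185 in GFP cultures. The log2 fold changes of 0.02 in GFP_TGFB and 0.06 in Cre_TGFB turned to -0.083 and -0.015 with library totals, so that neither kept its direction across scalings.

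Complex III, the cytochrome bc1 complex, rose in 6 of 8 nuclear members in GFP_TGFB and in 5 in Cre_TGFB cultures, with medians of 0.38 and 0.34. Uqcrq, a small subunit at the membrane, had 156, 122, 148 and 139 CPM in GFP_TGFB, against 88.5, 90.5, 67.5 and 63.3 in GFP cultures, and 139.7, 139.9, 122 and 118 in Cre_TGFB, against 92.8, 99.2, 72.8 and 54.8 in Cre cultures. No value with TGFB fell into the range without it. The log2 fold changes were 0.87 (SE 0.17, adjusted p = 0.000218) and 0.70 (SE 0.17, adjusted p = 0.00146). Uqcr10, another small subunit, rose by 0.58 in GFP_TGFB (adjusted p = 0.000347) and by 0.43 in Cre_TGFB (adjusted p = 0.00392). Uqcrc2, a core subunit on the matrix side, rose by 0.39 (adjusted p = 8.45e-05) and 0.50 (adjusted p = 5.77e-06). Uqcrh, the hinge protein, had the most counts of the complex and did not pass, at 0.13 and 0.05. Cyc1, outside the rule, rose by 0.43 in GFP_TGFB and 0.36 in Cre_TGFB cultures.

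Complex V rose in 11 of 17 tested members in GFP_TGFB and in 7 in Cre_TGFB cultures, with 0 lower in either. The medians were 0.27 and 0.20. With library totals 4 and 3 rose, near the 20.1% and 22.3% of all genes called higher. Atp5b, the catalytic beta subunit, was the nuclear member with the most counts. It had 1245, 1109.8, 1164 and 1243 CPM in GFP_TGFB, against 781, 835, 680.0 and 649.5 in GFP cultures, and 1191, 1191, 1112 and 1169 in Cre_TGFB, against 823, 856, 703 and 756 in Cre cultures. The groups were far apart, and the log2 fold changes were 0.69 (SE 0.083, adjusted p = 9.74e-07) and 0.57 (SE 0.083, adjusted p = 9.64e-06). Atp5g1, one of the genes for subunit c of the rotating ring, had 81.6, 64.9, 72.3 and 73.5 CPM in GFP_TGFB, against 45.8, 49.8, 38.4 and 34.8 in GFP cultures (log2 fold change 0.79, adjusted p = 8.6e-06), and rose by 0.65 in Cre_TGFB (adjusted p = 6.66e-05). Its sister genes Atp5g2 and Atp5g3 make the same mature subunit. Both rose in GFP_TGFB, and Atp5g3 in Cre_TGFB as well. Usmg5, which the rule missed by its older name, rose by 0.74 and 0.67, while Atpif1, the inhibitor of the ATP synthase, had 0.12 and 0.04 and did not pass.

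Complex IV, cytochrome c oxidase, had the largest rise and the largest falls of the nuclear set. Of 17 tested nuclear members 10 rose and 4 fell in GFP_TGFB, and 5 rose and 4 fell in Cre_TGFB cultures. The 5 that rose in Cre_TGFB were near the 27.5% of all genes called higher there. The 4 that fell did not exceed the 28.6% and 29% called lower. All 4 that fell were alternative isoforms, in a list of 8 isoforms of which 5 could be tested; leaving these 5 out, 9 of 12 rose and 0 fell in GFP_TGFB, and 4 rose and 0 fell in Cre_TGFB cultures. With library totals these became 5 and 1 higher, with 0 lower, and with the isolates as a replicate block 9 and 7 higher. The list was made with earlier results of these data known and holds all 4 that fell. The 0 lower therefore follows from leaving them out. Among the other subunits, Cox5a, which sits on the matrix side of the enzyme, had 124, 113, 123 and 133 CPM in GFP_TGFB, against 85.4, 94.1, 73.5 and 71.5 in GFP cultures (log2 fold change 0.60, SE 0.10, adjusted p = 4.99e-05), and rose by 0.51 in Cre_TGFB (adjusted p = 0.000270). Cox7b rose by 0.39 in GFP_TGFB (adjusted p = 0.0127; 0.0751 with library totals) and by 0.34 in Cre_TGFB (adjusted p = 0.0276; 0.0786 without Cre replicate 4, at 0.20, and 0.0656 without Cre_TGFB replicate 2; 0.104 with library totals).

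Cox4i2 had the largest fall. It is the isoform of subunit 4 that is known from lung, pericytes and cells at low oxygen. Cox4i2 had 0.282, 0.152, 0.133 and 0.0518 CPM in Cre_TGFB, against 5.11, 4.31, 7.94 and 6.53 in Cre cultures, and 0.108, 0.152, 0.179 and 0.244 in GFP_TGFB, against 4.33, 3.05, 5.00 and 6.04 in GFP cultures. The groups did not overlap, and the values with TGFB came close to the floor of 3 counts in a library, which is 0.0286 to 0.0777 CPM; the lowest library had 2 counts. The log2 fold changes were -5.13 (SE 0.37, adjusted p = 1.54e-09) and -4.74 (SE 0.38, adjusted p = 6.06e-09). Cox4i1, the isoform of most tissues, was 25.7 times as abundant per kilobase in GFP cultures and rose by 0.32 in GFP_TGFB (adjusted p = 0.00187); in Cre_TGFB its value was 0.14 (adjusted p = 0.126).

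Ndufa4l2, a paralogue of the complex IV subunit Ndufa4 that is induced by hypoxia and reported to lower respiration there, was the most abundant nuclear member per kilobase without TGFB. It had 23.1, 15.7, 18.3 and 17.9 CPM in Cre_TGFB, against 285, 183, 328 and 345 in Cre cultures, and 21.4, 13.7, 19.3 and 18.5 in GFP_TGFB, against 261, 162, 310.3 and 309 in GFP cultures. Replicate 2 was the lowest in every group, and the groups with and without TGFB were far apart. The fall was 15.2-fold in Cre_TGFB (log2 fold change -3.93, SE 0.27, adjusted p = 6.23e-10) and 14.3-fold in GFP_TGFB (log2 fold change -3.84, SE 0.27, adjusted p = 8.04e-10). Ndufa4 itself did not pass the test, with 0.11 and 0.21. In RPKM, the order of the pair was turned: Ndufa4l2 averaged 17.1 in Cre_TGFB and 16.6 in GFP_TGFB, below the 57.6 and 61.4 of Ndufa4, while in Cre and GFP cultures it averaged 260.3 and 238, above the 53.3 and 53.1 of Ndufa4.

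Cox7a1, the heart and muscle isoform of subunit 7a, had 0.411, 0.347, 0.310 and 0.389 CPM in Cre_TGFB, against 1.64, 0.977, 1.76 and 1.89 in Cre cultures, and 0.542, 0.236, 0.128 and 0.293 in GFP_TGFB, against 1.38, 0.924, 1.42 and 1.90 in GFP cultures. Its level was low throughout, and the groups did not overlap (log2 fold changes -2.09 and -2.24, adjusted p = 1.13e-05 and 1.02e-05). Cox7a2, the isoform of most tissues, rose by 0.40 in Cre_TGFB (adjusted p = 0.0132; 0.0532 with library totals) and by 0.58 in GFP_TGFB (adjusted p = 0.000792). Cox6b2, known as the testis isoform of subunit 6b, fell by 1.12 and 1.28 on the log2 scale (adjusted p = 0.00181 and 0.000809), with means of 0.841 ± 0.191 CPM in Cre_TGFB, 0.694 ± 0.231 in GFP_TGFB, 1.81 ± 0.349 in Cre and 1.69 ± 0.164 in GFP cultures (SD, n = 4 each). Cox6b1, its main form, rose by 0.33 in GFP_TGFB (adjusted p = 0.0126; 0.101 with library totals) and had 0.17 in Cre_TGFB, where it passed only with the isolates as a replicate block (adjusted p = 0.0444). Cox8a likewise rose by 0.35 in GFP_TGFB (adjusted p = 0.0156; 0.101 with library totals, 0.0616 without GFP replicate 4 and 0.0509 without GFP_TGFB replicate 1) and in Cre_TGFB had 0.24, which passed with the block (adjusted p = 0.0123) and without Cre_TGFB replicate 3 (adjusted p = 0.0354).

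Cox6a2, the heart and muscle isoform of subunit 6a, moved the other way. It had 1.00, 0.651, 2.24 and 1.37 CPM in GFP_TGFB, against 0.267, 0.429, 0.428 and 0.562 in GFP cultures, and 0.680, 0.607, 1.21 and 0.907 in Cre_TGFB, against 0.370, 0.226, 0.579 and 0.481 in Cre cultures. Replicate 3 was the highest with TGFB in both, and the groups did not overlap. The log2 fold changes were 1.62 (SE 0.35, adjusted p = 0.000673) and 1.09 (SE 0.35, adjusted p = 0.0125); without Cre_TGFB replicate 3 the value in Cre_TGFB was 0.85 and no longer passed (adjusted p = 0.0611). Cox6a1, the isoform of most tissues and far more abundant, had 228, 184, 199 and 202 CPM in GFP_TGFB, against 163, 155, 138 and 128 in GFP cultures (log2 fold change 0.48, adjusted p = 0.00162). Its smaller rise of 0.31 in Cre_TGFB (adjusted p = 0.0298) did not pass without Cre replicate 3 or 4 or Cre_TGFB replicate 1 or 2, with adjusted p between 0.0673 and 0.0961, or with library totals, with an adjusted p of 0.109.

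Cox4i2 and Ndufa4l2 are also found in pericytes, and Cox7a1 and Cox6a2 in cardiomyocytes, so the markers of both cell types are given beside them. The 6 pericyte markers summed to 102 to 114 CPM in Cre_TGFB, 98.2 to 109 in GFP_TGFB, 97.8 to 179 in Cre and 97.5 to 167 in GFP cultures, with Higd1b at or under the floor in every group. Of the 5 tested, Cspg4 rose and 2, Kcnj8 and Notch3, fell in GFP_TGFB, where 26.6% of all genes were higher and 28.6% lower. In Cre_TGFB Cspg4 rose and the other 4 fell, where 27.5% of all genes were higher and 29% lower. Log2 fold changes in GFP_TGFB and Cre_TGFB were 4.65 and 4.42 for Cspg4, -2.50 and -1.71 for Kcnj8, and -1.71 and -1.65 for Notch3. The pericyte sums thus join markers that moved in opposite directions. The 12 cardiomyocyte markers summed to 1.69 to 3.41 CPM in Cre_TGFB, 1.33 to 3.56 in GFP_TGFB, 2.58 to 4.71 in Cre and 2.80 to 3.55 in GFP cultures. Myh6, Nppa and Pln were at or under the floor in every group, and of the 2 tested Tnni3 fell. Their part in the isoform results was not tested.

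**Figure D3:**
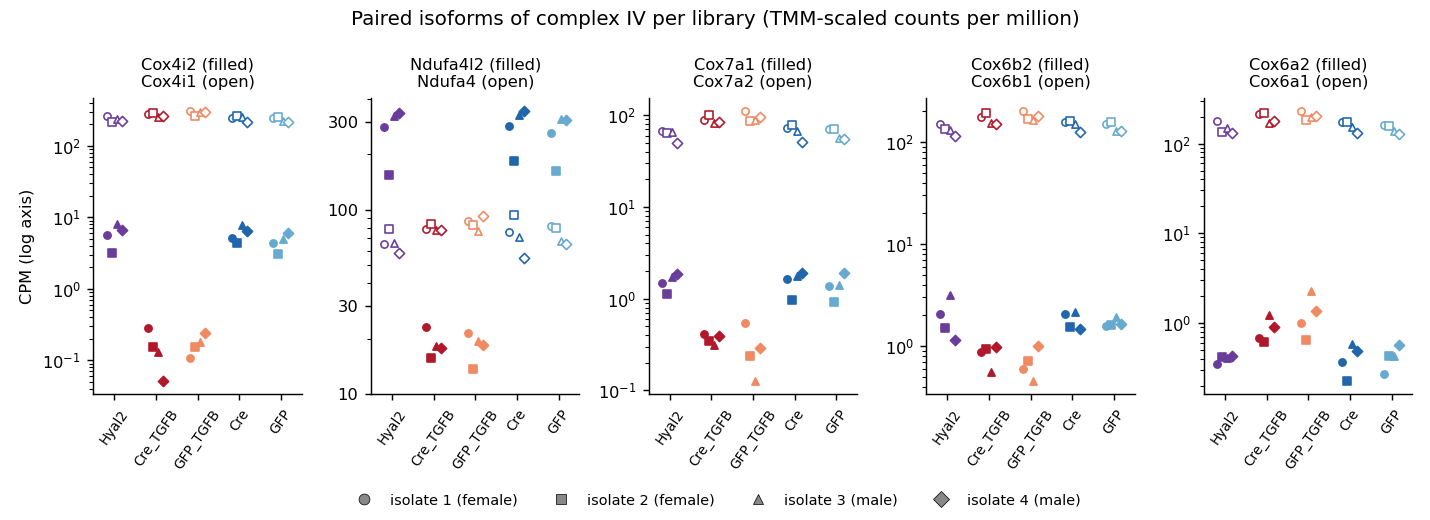
Each panel gives, on a log axis, the CPM of an alternative isoform (filled) and its main isoform (open) in every library of the 5 groups, with a symbol for each isolate. Cox4i2, Ndufa4l2, Cox7a1 and Cox6b2 are lower in Cre_TGFB and GFP_TGFB than in Cre and GFP cultures, Cox6a2 is higher, and the main isoforms stay within a narrow band.

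Mitochondrial mRNAs rose with TGFB after Cre virus, while after GFP virus fewer passed and the calls depended on which library was left out. In Cre_TGFB against Cre all 7 tested mRNAs rose, where 27.5% of all genes were higher, with a median log2 fold change of 1.09. In GFP_TGFB against GFP 3 of 7 rose, mt-Nd1, mt-Nd4 and mt-Cytb, where 26.6% of all genes were higher. The median there was 0.51. mt-Cytb, the cytochrome b of complex III, had 2483, 2082, 4575 and 3388 CPM in Cre_TGFB, against 1330.2, 1565, 1448 and 1501 in Cre cultures. These groups did not overlap (log2 fold change 1.10, SE 0.22, adjusted p = 0.000278). It had 2123, 2759, 3233 and 3049 CPM in GFP_TGFB, against 1594, 1464, 1889 and 2745 in GFP cultures, where GFP replicate 4 lay inside the range with TGFB (log2 fold change 0.54, SE 0.22, adjusted p = 0.0416; 0.0881 with library totals).

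mt-Co1, which binds oxygen in complex IV, had 2996, 2483, 5395 and 3473 CPM in Cre_TGFB, against 1928, 1960.0, 2127 and 2231 in Cre cultures, and 2687, 3292, 3661 and 3347 in GFP_TGFB, against 2288, 2152, 2532 and 4339.9 in GFP cultures. Only the first pair was separate, and only it passed (log2 fold change 0.80, adjusted p = 0.00388, against 0.20, adjusted p = 0.449, in the second). mt-Nd1, a core membrane subunit of complex I, had 1124, 903, 2114 and 1261 CPM in Cre_TGFB, against 563, 654, 601 and 570.0 in Cre cultures, and 1085, 1226, 1357 and 1335 in GFP_TGFB, against 624, 599, 608 and 1326 in GFP cultures. All values with TGFB exceeded all without it except GFP replicate 4 (log2 fold changes 1.18 and 0.66, adjusted p = 0.000392 and 0.0248). mt-Nd4, another proton-pumping subunit, rose by 1.10 (adjusted p = 0.000289) in Cre_TGFB and by 0.64 (adjusted p = 0.0175) in GFP_TGFB.

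The complex I subunits mt-Nd2 and mt-Nd5 rose by 1.09 and 0.93 in Cre_TGFB (adjusted p = 0.000710 and 0.00191). In GFP_TGFB mt-Nd2 had 0.51 (adjusted p = 0.0787) and passed with the isolates as a replicate block (adjusted p = 0.0377), and mt-Nd5 had 0.20 (adjusted p = 0.482). mt-Nd6 is the only protein gene read from the other strand of mitochondrial DNA and was the least abundant of the 7. It had 16.6, 14.3, 46.7 and 21.4 CPM in Cre_TGFB, against 12.04, 18.3, 12.7 and 13.1 in Cre cultures, which overlapped. Its rise of 0.82 (adjusted p = 0.0131) was 0.31 without Cre_TGFB replicate 3 (adjusted p = 0.142), and in GFP_TGFB it had -0.02.

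The libraries GFP replicate 4 and Cre_TGFB replicate 3 stood apart from their groups in all 7 mitochondrial mRNAs. GFP replicate 4 lay 1.401 to 2.17 times as high as the mean of the other GFP libraries, and Cre_TGFB replicate 3 lay 1.65 to 2.68 times as high as that of the other Cre_TGFB libraries, while the nuclear members of these libraries had medians of 0.922 and 0.929 on the same measure. Leaving each library out in turn, the number called in GFP_TGFB was 0 without GFP replicate 1 or 2, 1 without GFP replicate 3 or GFP_TGFB replicate 3 or 4, 5 without GFP replicate 4, and 2 and 4 without GFP_TGFB replicates 2 and 1. Without GFP replicate 4 the log2 fold change in GFP_TGFB was 1.03 for mt-Nd1, 0.84 for mt-Nd2 and 0.48 for mt-Co1. In Cre_TGFB the number stayed at 6 or 7 whichever library was left out, and the median was 0.62 in female and 1.41 in male isolates. In GFP_TGFB, female isolates alone gave 6 calls (median 0.67), where 36.7% of all genes were called, and male isolates 0 (median 0.33), where 54.1% were called.

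**Figure D4:**
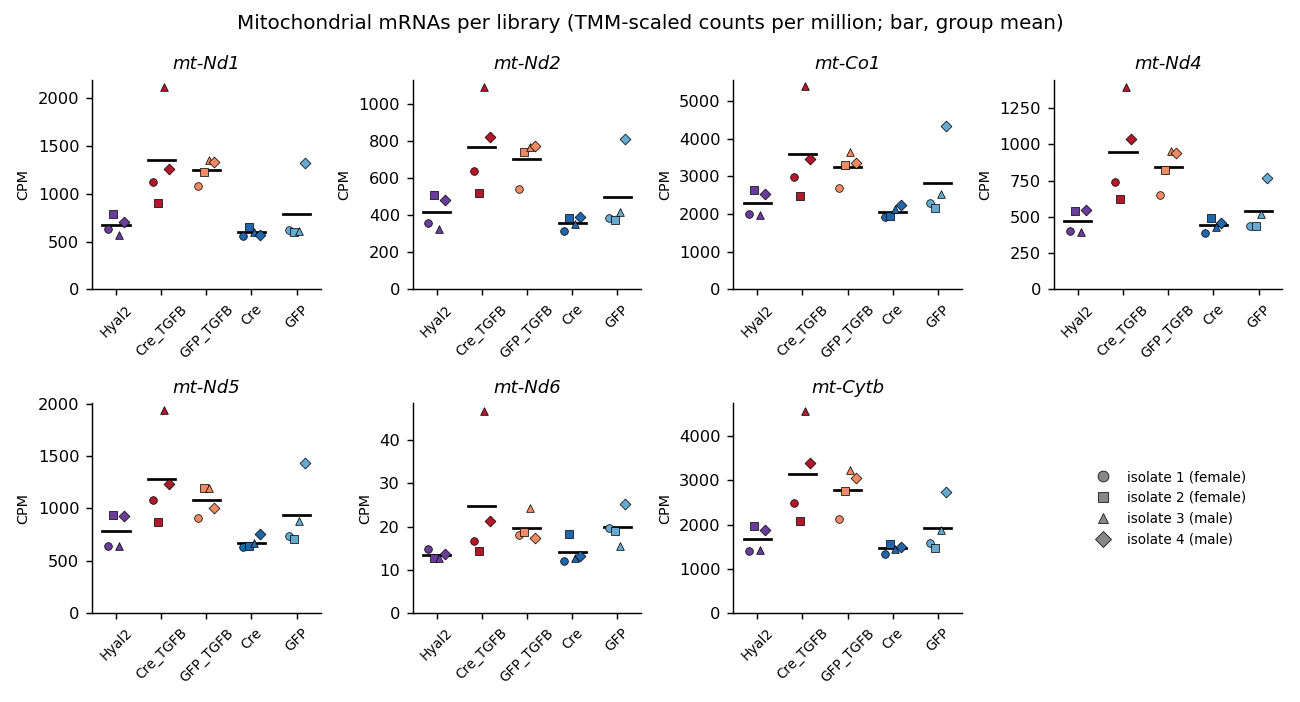
CPM of the 7 tested mitochondrial mRNAs in every library, by group, with a bar at the group mean and a symbol for each isolate. Cre_TGFB replicate 3 and GFP replicate 4 lie above the rest of their groups in each panel.

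As a share of all counts, the mitochondrial mRNAs took 1.06 ± 0.365% in Cre_TGFB, 0.954 ± 0.129% in GFP_TGFB, 0.653 ± 0.121% in Hyal2, 0.568 ± 0.036% in Cre and 0.776 ± 0.264% in GFP cultures (mean ± SD, n = 4 each). The nuclear members took 0.781 ± 0.048% in Cre_TGFB, 0.804 ± 0.0277% in GFP_TGFB, 0.714 ± 0.0428% in Hyal2, 0.736 ± 0.0682% in Cre and 0.726 ± 0.0517% in GFP cultures. The mitochondrial share varied more than the nuclear share, except among Cre libraries. The ratio of mitochondrial to nuclear counts, which no library scaling can move, was set side by side within each isolate. In Cre_TGFB against Cre it was higher in 4 of 4 isolates, by 0.67, 0.25, 1.45 and 0.66 on the log2 scale, with a mean of 0.76 ± 0.50 (SD over isolates). In GFP_TGFB against GFP it differed by 0.14, 0.72, 0.42 and -0.51, with a mean of 0.19 ± 0.52, and over the other isolates, without isolate 4, the mean was 0.43. The sign thus differed between isolates in GFP_TGFB, and no test was made of this score over chosen members.

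**Figure D5:**
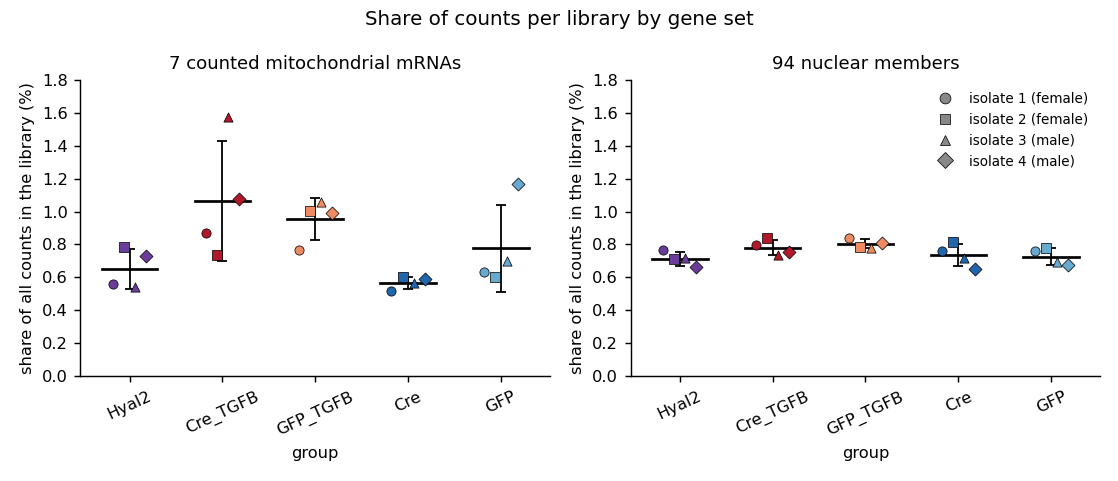
Share of all counts (percent) taken by the mitochondrial mRNAs and by the nuclear members in each library, by group, with the mean and SD. The nuclear share lies between 0.65% and 0.84% in every library, while the mitochondrial share runs from 0.52% in a Cre library to 1.57% in a Cre_TGFB library.

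Deletion or overexpression of Hyal2 gave no call in either set. In Cre against GFP, whose GFP libraries also serve the Hyal2 and GFP_TGFB comparisons, 0 of 97 tested members passed, where 0.0064% of all genes were called, and 1 nuclear and 2 mitochondrial members had an unadjusted p under 0.05. DESeq2 and limma-voom also called 0. All 7 mitochondrial mRNAs had lower estimates, with a median of -0.46, while the nuclear median was 0.05. The log2 ratio of mitochondrial to nuclear counts was lower in Cre in 4 of 4 isolates, with differences of -0.27, -0.07, -0.38 and -0.94 (mean -0.42 ± 0.37), and without isolate 4 the mean was -0.24. Ndufaf4 had the smallest unadjusted p of the set, with 6.63, 7.61, 7.36 and 5.89 CPM in Cre, against 8.13, 8.67, 7.73 and 9.34 in GFP cultures, which did not overlap; the log2 fold change of -0.30 did not pass (adjusted p = 0.926).

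In Cre_TGFB against GFP_TGFB 0 of 97 passed (background 0.0064%), with 0 members at an unadjusted p under 0.05 and 0 calls by DESeq2 and limma-voom. The nuclear estimates were below 0 in 78 of 90 members, with a median of -0.05, and the mitochondrial median was 0.17. That mitochondrial median rests on Cre_TGFB replicate 3, without which all 7 estimates lay between -0.023 and -0.19. In Hyal2 against GFP 0 of 97 passed (background 0.0064%), with 3 nuclear and 0 mitochondrial members at an unadjusted p under 0.05 and 0 calls by both other tools. Its medians were -0.04 for the nuclear and -0.25 for the mitochondrial members, and without GFP replicate 4 the mitochondrial estimates of mt-Nd1, mt-Nd2, mt-Nd4, mt-Nd5 and mt-Cytb turned to between 0.015 and 0.14.

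Whether Cre altered the response to TGFB was tested as an interaction. There 0 of 97 members passed, and 0% of all genes were called; 2 mitochondrial and 0 nuclear members had an unadjusted p under 0.05, and DESeq2 and limma-voom called 0. The estimates for the mitochondrial mRNAs ranged from 0.46 to 0.84 on the log2 scale, with a median of 0.59, and the nuclear median was -0.09. mt-Nd6 had the highest, 0.84 (SE 0.38, adjusted p = 1.00), and mt-Nd5 followed with 0.73 (SE 0.32, adjusted p = 1.00). The larger number of mitochondrial calls after Cre is thus not shown to be a different response.

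Other mitochondrial genes, in lists that are not independent of earlier results on these data, are given by their counts in GFP_TGFB and then Cre_TGFB, beside the medians of -0.024 and -0.0042 over all genes and the shares of all genes called, 26.6% and 27.5% higher and 28.6% and 29% lower. Mitochondrial ribosomal proteins, which translate the mitochondrial mRNAs, rose in 57 and 44 of 78 with 0 lower, with medians of 0.32 and 0.24; Mrps18b, Mrpl19 and Mrps10 had the smallest p. Cytosolic ribosomal proteins were listed by symbol, which also took in Rps19bp1, not itself a ribosomal protein. Of the 84 listed genes, 52 and 24 rose, with 0 lower and medians of 0.26 and 0.12. The second count was near the 27.5% of all genes called higher, and was 13 in the lowest of the fits that left out a library. With library totals, where 20.1% and 22.3% of all genes were higher, the mitochondrial ribosomal proteins gave 35 and 28 higher with 0 and 3 lower. The cytosolic ones gave 25 and 10 higher with 0 and 2 lower, and the 10 were under the share of all genes. Carriers, channels and import proteins rose in 15 of 18 in both comparisons, with 0 lower and medians of 0.53 and 0.43, led by the chaperonin Hspd1 at 1.39 and 1.42. For these and for the RNA processing, DNA maintenance, regulator and tricarboxylic acid cycle lists, counts with library totals are not given here. How far those lists depend on the scaling is thus not shown. Factors that process and stabilise mitochondrial RNA rose in 12 and 11 of 19, with 0 and 2 lower; Lrpprc, which keeps mitochondrial mRNAs stable, rose by 0.86 and 0.98, and Tbrg4 and Elac2 rose in both.

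Genes of mitochondrial DNA maintenance and transcription rose in 7 of 19 and fell in 3 in both comparisons, with medians of 0.12 and 0.21. The polymerase Polg and the helicase Twnk rose, by 0.48 and 0.62 in GFP_TGFB, and the nucleoside kinases Dguok and Tk2 fell. Regulators of mitochondrial biogenesis rose in 5 of 16 and fell in 3 and 4, with medians of 0.00 and 0.19, counts near the shares of all genes; the nuclear receptor Esrra rose by 0.49 and 0.42, and Ppara, a regulator of fat oxidation, fell by 2.42 and 1.73. Assembly factors outside the rule rose in 22 and 20 of 47 and fell in 3 and 6, with medians of 0.22 and 0.18, and with library totals they rose in 14 and 13 and fell in 5 and 6. Cox17, the copper chaperone of complex IV, rose by 1.19 and 0.97, and Higd1a, a hypoxia-induced partner of complex IV, fell by 0.94 and 1.08. Electron carriers and their suppliers rose in 10 and 9 of 24 and fell in 3 and 3, with medians of 0.17 and 0.11, and with library totals they rose in 6 and 7 and fell in 3 and 6; cytochrome c, Cycs, rose by 1.10 and 0.90.

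The tricarboxylic acid cycle and pyruvate entry were split: 13 and 12 of 27 rose and 8 and 8 fell, with medians of 0.10 and 0.15. Idh3a, a subunit of the NADH-making isocitrate dehydrogenase, rose by 1.21 and 1.26, and citrate synthase, Cs, rose by 0.50 in GFP_TGFB. Pdk1, the kinase that closes pyruvate dehydrogenase, fell by 1.73 and 1.67, and Pcx, pyruvate carboxylase, by 1.19 and 1.18. The mitochondrial ribosomal RNAs, 2 genes with 0.018% to 0.032% of the counts of a library, gave 0 and 1 calls, mt-Rnr2 rising by 0.42 in Cre_TGFB (adjusted p = 0.0427). That call was lost with library totals (adjusted p = 0.0898) and without any 1 of the Cre libraries or Cre_TGFB replicate 3 or 4 (adjusted p between 0.0580 and 0.188), and in GFP_TGFB both mt-Rnr1 and mt-Rnr2 passed without GFP replicate 4 (0.35 and 0.44, adjusted p = 0.0197 and 0.00952).

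Promoters of the nuclear members were read from RefSeq sequence of GRCm38.p6, 250 bases before to 50 after the start, for 74 of the 94 members with 79 promoters. A motif of nuclear respiratory factor 1, a transcription factor of respiratory genes, searched as GCGCANGCGC on both strands, occurred in 20 of them, 25.3%, against 4.60% of all 32851 promoters. The ETS motif CCGGAAG, of the type bound by GABP, occurred in 18, or 22.8%, against 8.86%, and the YY1 motif AAGATGGCG in 8, or 10.1%, against 1.40%. Among the 45 promoters of members that rose in GFP_TGFB the NRF1 motif occurred in 11, or 24.4%, close to its share in the whole set. The promoters of 2 members that rose, Ndufaf4 and Cox6a1, show the match in capitals within 100 bases (Ndufaf4, chr4:24897925-24898024, plus strand; Cox6a1, chr5:115349066-115349165, minus strand):
Ndufaf4: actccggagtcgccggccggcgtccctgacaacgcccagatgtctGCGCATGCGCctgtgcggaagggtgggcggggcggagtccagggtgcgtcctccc
Cox6a1: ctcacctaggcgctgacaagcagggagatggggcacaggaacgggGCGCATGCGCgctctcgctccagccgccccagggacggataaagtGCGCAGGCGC
A match to these letters is a description of the sequence, and binding was not measured. The promoters of Cox4i1, Cox4i2 and Ndufa4l2 were not used here.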

How the data were processed

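RNA was measured by RNA-seq in 20 libraries. The deposited table holds raw counts per Ensembl gene, which the authors made with HTSeq 0.10.0 on GRCm39 (mm39) after FastQC 0.10.1, per the submitters' processing notes. Sources used here do not name the aligner, the annotation or the strand setting, so overlapping genes and near-identical copies are uncertain. Symbols, biotypes and exon lengths came from an annotation of GRCm38, used for names and lengths only. Identifiers without a symbol held 0.215% to 0.568% of a library's counts. All columns were matched to a sample by name.

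The filter of edgeR, filterByExpr, left 15624 tested genes of 31062 with any count. It asked, in 4 libraries, for the CPM that equals 10 counts at the median library size. It also asked for 15 counts in all. The main test was edgeR 4.0.16 (R 4.3.3) with TMM factors and the quasi-likelihood test in 1 fit over all 5 groups, with Benjamini-Hochberg adjustment over all tested genes at 0.05. Alternatives were the isolate as a replicate block, library totals, RLE size factors, no filter, DESeq2 1.42.0, limma-voom (limma 3.58.1), each sex alone, and leaving out each library in turn. The block was used because library names share an isolate prefix across groups; the deviations of same-numbered libraries from their group means correlated at 0.114 or more in all 40 pairs. Libraries of a group differed beyond counting noise, with a chi-square per degree of freedom of 8.81 to 154.9 over 30 pairs. Whether cultures of a group came from separate animals is known only as far as the isolates, and p-values measure the spread between these libraries. A floor of 3 counts is 0.0286 to 0.0777 CPM, which covers counting error only. RPKM are CPM per kilobase of exon.

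The members and the gene lists were chosen with earlier results of these data known. Genes were named by a rule: Hyal2, the mitochondrial mRNAs, up to 8 called nuclear members per direction and comparison with the largest log2 fold change and at least 1 CPM in the higher group, the member of each class with the highest CPM, the listed isoforms with their main forms, and up to 3 called genes per direction of each other list with the smallest p. Sdhb, Sdhc, Sdhd, Atp5g2, Atp5g3, Usmg5, Atpif1, Cyc1 and the markers named were added after their values were seen. Of the genes the rule picks from the other lists the text describes only some, a choice made after their values were seen. One of the members the rule names is not reported here. Shared 50-base windows, alignments and motifs were computed with Python 3.11.15, numpy 2.4.6, pandas 2.3.3, scipy 1.17.1 and Biopython 1.88, and figures with matplotlib 3.10.9. After these fits the main test was also run on counts simulated from the means and spread of these data, with an outcome not given here.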

Additional observations from a re-analysis of the deposited data

Results flagged for a closer look

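The group values screened numbered 195 and included those of 36 genes. Of these 195, 7 had 1 library far from the other 3, by Dixon's test at 95%. Chance flags about 1 in 20 groups, and 7 of 195 is under that share. GFP replicate 4 stood above its group in mt-Nd1, at 1326 CPM where the others had 599 to 624, and in mt-Nd2, at 808 CPM where the others had 371 to 419. GFP_TGFB replicate 1 stood below its group in mt-Nd2, at 539 CPM where the others had 741 to 771. Cre replicate 2 stood above its group in mt-Nd6, at 18.3 CPM where the others had 12.04 to 13.1. In the nuclear set, Ndufaf3 had 11.8 CPM in GFP_TGFB replicate 2, where the others had 13.5 to 13.8. Sdha had 187.6 CPM in Cre_TGFB replicate 2, where the others had 193.6 to 194.3. Ndufa4 had 83.5 CPM in the same library, where the others had 78.0 to 78.6.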

How the results depend on the processing

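The median of the nuclear members stayed above 0 in every alternative run for both TGFB comparisons, while the number called did not stay the same. In GFP_TGFB against GFP the 56 nuclear calls became 31 with library totals and 22 in female isolates alone, and lay between 48 and 57 when a library was left out. In Cre_TGFB against Cre the 45 became 28 with library totals and 21 in female isolates, and 37 to 52 when a library was left out. With the isolates as a replicate block they were 62 and 54. The 3 mitochondrial calls in GFP_TGFB became 6 in female isolates, 0 in male isolates, 0 with no filter and 4 with the block, and 0 to 5 without 1 library. The 7 in Cre_TGFB lay between 6 and 7 without 1 library and were 7 with the block. Among them mt-Nd6 lost its call with no filter (0.81, adjusted p = 0.0520) and in female isolates alone (0.023, adjusted p = 0.933). The block gave 0 member calls in the comparisons of Cre, of Hyal2 and of the interaction, as did every other alternative run; with it 0.269% of all genes were called in Cre against GFP.

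The difference between the group means of the log2 ratio of mitochondrial to nuclear counts, leaving out 1 library without its isolate partner, ran from 0.056 to 0.44 in GFP_TGFB against GFP, 0.52 to 0.95 in Cre_TGFB against Cre, -0.55 to -0.17 in Cre against GFP, -0.086 to 0.34 in Cre_TGFB against GFP_TGFB and -0.33 to 0.059 in Hyal2 against GFP. Signs turned in some estimates, and the cause was not tested. Some of these were near 0 in the main fit and others were not. The main interaction estimates were 0.59 for mt-Nd2, 0.56 for mt-Cytb, 0.51 for mt-Nd1 and 0.46 for mt-Nd4. In Hyal2 against GFP mt-Co1 had -0.30, and in Cre against GFP mt-Nd4 had -0.29. With library totals the estimates that turned were Sdha (-0.083 in GFP_TGFB, -0.015 in Cre_TGFB) and Uqcrh (-0.021 in Cre_TGFB), and with no filter Sdha (-0.0017 in GFP_TGFB). In male isolates they were mt-Nd5 (-0.070) and mt-Nd6 (0.031) in GFP_TGFB. In female isolates they were Sdha (-0.0041 in GFP_TGFB), Ndufa4 (-0.071 in Cre_TGFB) and mt-Nd4 (0.018 in Cre against GFP). Female isolates also turned the mitochondrial mRNAs in Cre_TGFB against GFP_TGFB (mt-Co1 -0.13, mt-Cytb -0.10, mt-Nd1 -0.19, mt-Nd2 -0.15, mt-Nd4 -0.12, mt-Nd5 -0.12, mt-Nd6 -0.25). They did so in Hyal2 against GFP (mt-Co1 0.063, mt-Cytb 0.13, mt-Nd1 0.22, mt-Nd2 0.19, mt-Nd4 0.10, mt-Nd5 0.12) and in the interaction (mt-Cytb -0.024, mt-Nd1 -0.19, mt-Nd2 -0.043, mt-Nd4 -0.14).

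Leaving out 1 library turned the sign of these estimates, given as the lowest and highest value. In Cre_TGFB against Cre, Ndufa4 ran from -5.4e-05 to 0.25 and Uqcrh from -0.037 to 0.1. In GFP_TGFB against GFP, mt-Nd6 ran from -0.14 to 0.12. In Cre_TGFB against GFP_TGFB, where leaving out Cre_TGFB replicate 3 gave the lowest values, the ranges were -0.12 to 0.28 for mt-Co1, -0.074 to 0.32 for mt-Cytb, -0.19 to 0.26 for mt-Nd1, -0.095 to 0.27 for mt-Nd2, -0.076 to 0.32 for mt-Nd4, -0.023 to 0.40 for mt-Nd5 and -0.17 to 0.53 for mt-Nd6. In Hyal2 against GFP, where leaving out GFP replicate 4 gave the highest, they were -0.32 to 0.015 for mt-Cytb, -0.34 to 0.14 for mt-Nd1, -0.36 to 0.094 for mt-Nd2, -0.29 to 0.024 for mt-Nd4 and -0.37 to 0.019 for mt-Nd5.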
